A study of Homo sapiens with 12 samples.

Results

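Wnt signaling was described here through 44 genes: 19 WNT ligand genes, 12 receptor genes (10 frizzled genes, FZD, with the co-receptor genes LRP5 and LRP6), 4 Dickkopf inhibitor genes (DKK), 5 cytoplasmic components (CTNNB1, APC, AXIN1, AXIN2 and GSK3B) and 4 nuclear effectors (TCF7, TCF7L1, TCF7L2 and LEF1). A listed region was assigned to a member when the deposited annotation placed it inside that gene, or at most 5000 bases upstream of a start of that gene, and the counts of its regions were summed. For 5-hydroxymethylcytosine (5hmC), 40 of the 44 members had a region, 378 regions among the 327931 analysed. WNT8A, FZD1, FZD4 and DKK1 had none. For 5-methylcytosine (5mC), 19 members had a region, 70 among the 65535 listed, and none of them was a frizzled gene. The values are of DNA marks: how strongly these genes are transcribed was not measured.

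The cells were HL-60, an established human promyelocytic leukemia line, which matures toward neutrophil-like cells in dimethyl sulfoxide (DMSO). Undifferentiated cells were viable (SYTOX Blue-) and CD11b-, and differentiated cells had 7 days in 1.5% DMSO (211 mM) and were taken as viable and CD11b+. CD11b is a surface protein of maturing myeloid cells, so the 2 states differ by the treatment and by that selection together. Each state had 3 biological replicates of 1 line, and the DNA of each was divided between an antibody to 5mC (MeDIP) and an antibody to 5hmC (hMeDIP), giving 12 libraries. No input library was analysed, and the defining markers of the cells, which are transcripts or proteins, were not checked here.

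Wnt ligands are secreted lipid-modified proteins that bind a frizzled receptor together with LRP5 or LRP6. Without a ligand, a complex of AXIN, APC and GSK3B marks beta-catenin (the product of CTNNB1) for destruction. With a ligand beta-catenin persists, enters the nucleus and acts with the TCF and LEF1 DNA-binding proteins on target genes, while Dickkopf proteins block the pathway at LRP5 and LRP6. In blood, the pathway is known for its part in stem cell self-renewal and in myeloid leukemia. The mark 5mC at CpG-dense starts goes with silent genes, and 5hmC is made from 5mC by TET enzymes and is often found in gene bodies and at enhancers.

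The antibodies capture modified CpGs, so the number of CpGs sets what can be captured. Of the 44 members, 31 had an entry in the RefSeq promoter table (GRCh38.p14, 250 bases before to 50 after the start), 38 entries in all. These entries held from 3 to 53 CG dinucleotides, with a median of 30, against a median of 14 over the 35116 entries of the table. At least 1 CG stood in 96.0% of all entries. The sequences below are of 4 members that had a listed region within 1183 bases upstream of the start, with every CG in capitals (the search reads the same on both strands). They hold different numbers of CG: WNT7A held 40, WNT9B 38, FZD9 31 and WNT8B 4. All run 5′ to 3′ on the gene's strand, which is minus for WNT7A and plus for the others.
WNT7A (chr3:13880022-13880321): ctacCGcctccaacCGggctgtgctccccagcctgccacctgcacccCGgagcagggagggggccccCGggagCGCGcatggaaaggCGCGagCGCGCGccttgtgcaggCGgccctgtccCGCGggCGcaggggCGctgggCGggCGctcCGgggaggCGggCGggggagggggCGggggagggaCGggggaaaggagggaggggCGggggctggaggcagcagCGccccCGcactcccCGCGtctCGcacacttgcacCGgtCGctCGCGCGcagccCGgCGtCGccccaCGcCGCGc
WNT9B (chr17:46851333-46851632): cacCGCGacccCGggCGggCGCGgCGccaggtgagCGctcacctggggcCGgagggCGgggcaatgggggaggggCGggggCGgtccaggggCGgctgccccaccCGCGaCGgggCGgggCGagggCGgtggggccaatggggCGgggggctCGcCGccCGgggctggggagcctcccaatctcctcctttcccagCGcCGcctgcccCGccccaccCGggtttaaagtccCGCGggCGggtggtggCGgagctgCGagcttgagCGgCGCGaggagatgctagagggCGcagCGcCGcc
FZD9 (chr7:73433528-73433827): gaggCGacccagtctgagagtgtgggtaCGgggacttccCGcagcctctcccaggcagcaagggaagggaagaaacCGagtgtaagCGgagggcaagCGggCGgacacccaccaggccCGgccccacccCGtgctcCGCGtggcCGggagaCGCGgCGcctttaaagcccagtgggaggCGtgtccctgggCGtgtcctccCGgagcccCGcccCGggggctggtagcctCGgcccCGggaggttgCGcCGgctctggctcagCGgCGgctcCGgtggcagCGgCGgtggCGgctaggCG
WNT8B (chr10:100462759-100463058): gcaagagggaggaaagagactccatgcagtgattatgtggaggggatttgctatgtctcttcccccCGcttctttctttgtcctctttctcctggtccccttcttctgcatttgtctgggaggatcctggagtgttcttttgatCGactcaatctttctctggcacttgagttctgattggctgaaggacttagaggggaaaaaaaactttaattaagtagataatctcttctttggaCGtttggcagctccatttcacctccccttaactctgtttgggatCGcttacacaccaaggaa

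These coordinates are of GRCh38.p14, whereas all region coordinates that follow are of GRCh37 (hg19), the build of the deposited regions, and the starts of the 2 builds were not matched to each other. Beside the CpG-poor start of WNT8B, the 5hmC region 13 bases upstream rose, with a difference of 0.51 ± 0.21 on the log2 scale (± SE) and an adjusted p of 0.0331 by edgeR's quasi-likelihood F test. Beside the CpG-rich start of WNT9B, a 5mC region 369 bases upstream rose by 0.64 ± 0.21 (adjusted p = 0.0257), from 3.23, 4.66 and 4.04 to 5.07, 7.29 and 6.29 CPM (the counts-per-million unit, relative to all listed counts of a library). The 5hmC region at that start differed by 0.11 ± 0.18 and did not pass (adjusted p = 0.587). At FZD9, the 5hmC region 110 bases upstream had a difference of -0.66 ± 0.29 that did not pass either (adjusted p = 0.0540). All 3 upstream 5hmC regions of WNT7A rose, and they are described with that gene. The 5hmC rise beside WNT8B and the 5mC rise beside WNT9B each passed in 4 of 10 settings of the analysis. Scaled by library totals, they were 0.30 (adjusted p = 0.222) and 0.38 (adjusted p = 0.509) by the same test.

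The 5hmC libraries held 13010267 to 33693880 counts in all regions and the 5mC libraries 6076100 to 9670011 in the listed ones. The listed 5mC counts were higher in every differentiated library (7940755 to 9670011) than in every undifferentiated one (6076100 to 6851769). The deposited 5mC list holds 65535 regions and ends at a p-value of 0.0165 in the authors' own test between the states, so a high share of passing 5mC members follows from where the list ends. The reason for that end is not stated in these sources. Values are CPM scaled by TMM (trimmed mean of M-values, which assumes that most regions do not change), and fold changes are log2, differentiated over undifferentiated. Scaling by library totals instead moved the median over all genes to -0.19 for 5hmC and to -0.31 for 5mC, against 0.01 and 0.00 with TMM. All changes are therefore relative to the bulk of the regions listed for a mark. The 5mC regions were listed by their difference between the states, so the TMM assumption need not hold there. Over all listed 5mC regions the median was 0.22 with TMM and -0.035 with library totals. In bulk DNA, a change in the share of cells that carry a mark and a change in its amount per cell cannot be told apart.

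In 5hmC, 12 members rose and 5 fell, while over all 20404 genes 25.7% rose and 25.8% fell. Without any overlap between the 2 sets of libraries, 15 members were higher and 7 lower, against 27.5% and 29.5% of all genes. The members that rose were the ligand genes WNT2, WNT2B, WNT3A, WNT5A, WNT6, WNT7A, WNT9A, WNT11 and WNT16, the inhibitor genes DKK2 and DKK4, and the nuclear effector TCF7L2. Those that fell were the ligand gene WNT5B, the receptor genes FZD3, FZD5 and LRP6, and AXIN1, a scaffold of the destruction complex. The median log2 fold change was 0.15 over the 40 members and 0.01 over all genes. By role the median was 0.26 for 18 ligand genes, 0.44 for 3 inhibitor genes, 0.02 for 10 receptor genes, -0.05 for 5 cytoplasmic components and 0.02 for 4 nuclear effectors. With library totals 4 members rose and 11 fell: WNT5A, WNT7A, DKK2 and DKK4 still passed as higher, and the 5 that had fallen still passed as lower. The share of higher calls among called members was thus 70.6% with TMM and 26.7% with totals. The calls over all genes moved the same way: with totals 1591 of the 20404 rose and 8545 fell.

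**Figure D1:**
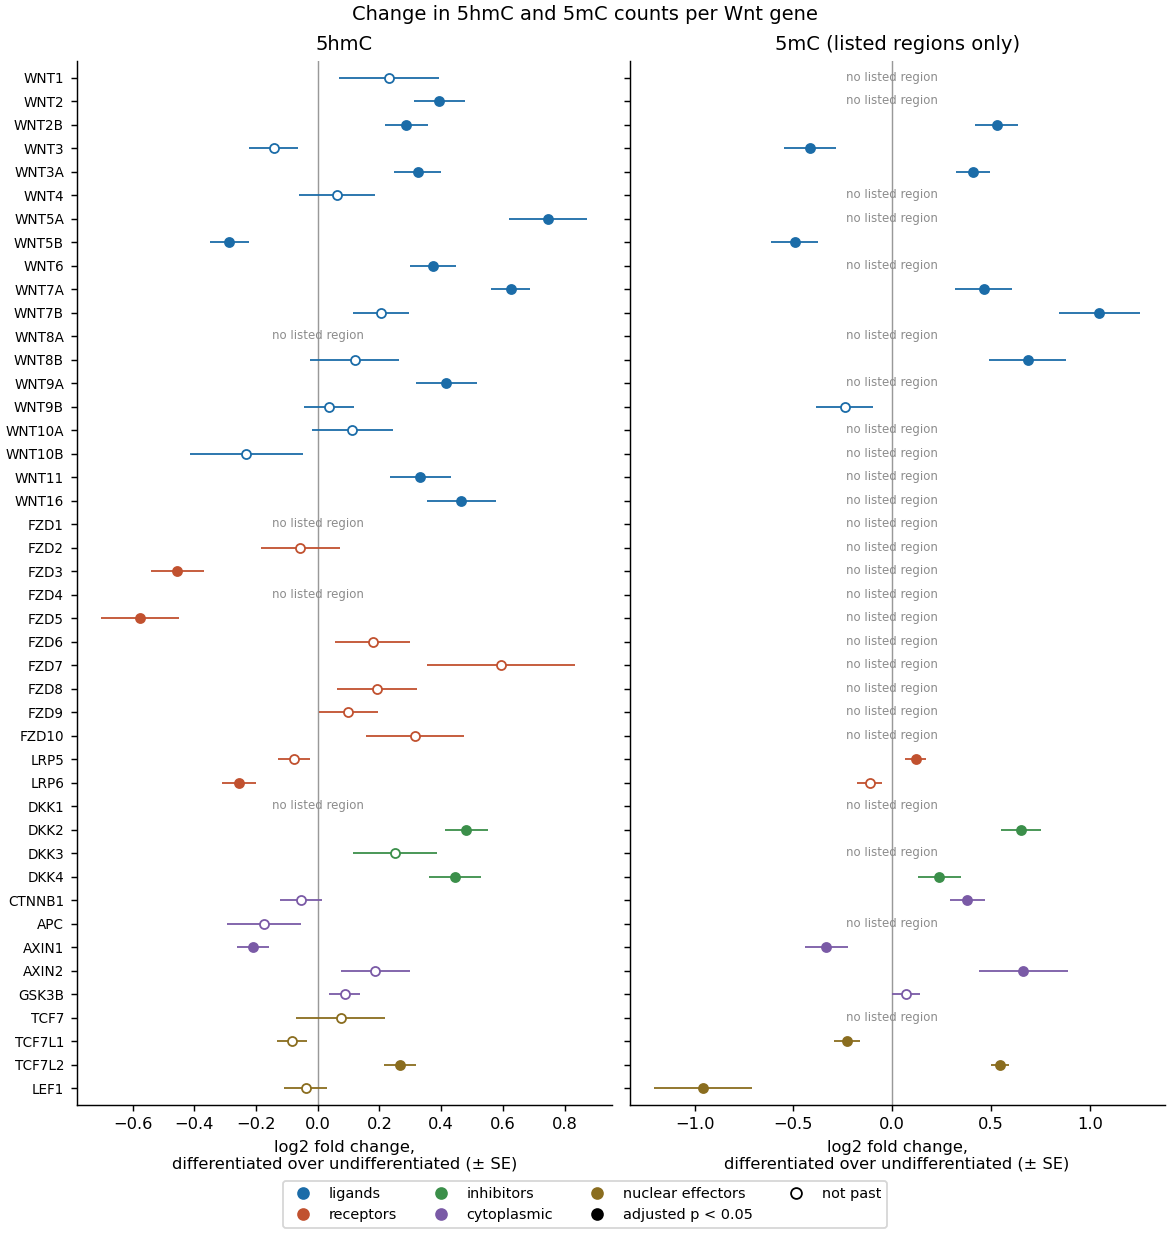
Log2 fold change, differentiated over undifferentiated, of 5hmC (left) and 5mC (right) counts per gene for the 44 Wnt genes, ordered and coloured by role; bars are SE, and filled points passed an adjusted p of 0.05. In 5hmC 9 ligand genes have filled points to the right of 0 and 1 to the left, whereas the 3 filled receptor genes lie to the left. Over all 20404 genes 25.7% rose and 25.8% fell in 5hmC. Genes with no listed region are marked.

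Among the 18 ligand genes with a 5hmC region, 9 rose, 1 fell and 8 did not pass with TMM, and 2 rose and 2 fell with library totals. WNT7A, a ligand best known from limb and brain patterning, had 55.7, 52.7 and 54.3 CPM in the undifferentiated libraries and 83.1, 91.9 and 77.5 CPM in the differentiated ones. Every differentiated library was above every undifferentiated one. The log2 fold change was 0.63 ± 0.06 (adjusted p = 2.16e-05), and it was spread along the gene: 12 of its 16 regions rose and 1 fell. At region level, 27% of all regions rose and 23.3% fell. The smallest p among the WNT7A regions that rose was at chr3:13909401-13911600 (0.96 ± 0.16, adjusted p = 1.28e-05), and the region that fell was chr3:13877401-13877800 (-0.66 ± 0.27, adjusted p = 0.0369). Not all of the 12 rises passed with library totals. The rise of smallest p passed in all 10 settings of the analysis, and the fall passed in 4 of them. The 3 regions at 1183, 2383 and 3383 bases upstream of the start rose by 0.68 ± 0.19, 0.75 ± 0.19 and 0.70 ± 0.20.

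WNT5A, the prototype of ligands that act without beta-catenin, had the largest 5hmC change of any member past the threshold. It rose from 6.28, 5.54 and 4.94 CPM to 8.07, 11.4 and 9.76 CPM, with no overlap between the states (0.75 ± 0.13, adjusted p = 0.000421). Both regions that passed lay in or near a CpG island. The first was in an island inside the gene (chr3:55507801-55509000, 0.81 ± 0.16). The second was in an island shore 1531 bases upstream of a start (chr3:55523201-55524000, 1.18 ± 0.25). The upstream region went from 0.732, 1.06 and 0.664 CPM to 1.69, 1.88 and 1.94 CPM. WNT5B, the close relative of WNT5A, moved the other way: 23.4, 22.8 and 21.8 CPM became 19.0, 17.5 and 19.1 CPM (-0.29 ± 0.06, adjusted p = 0.00209), again with no overlap. Its 9 regions held 4 that fell and 1 that rose. The deepest fall was at chr12:1752601-1753000 (-1.24 ± 0.28, adjusted p = 0.000457), and the rise was at a start of the gene (chr12:1738401-1738800, 0.64 ± 0.20, adjusted p = 0.00653). Over its upstream regions alone the change was -0.17 and did not pass (adjusted p = 0.159).

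WNT16, a ligand known from bone, had 5.38, 6.08 and 6.56 CPM before and 8.24, 7.13 and 8.55 CPM after differentiation (0.47 ± 0.11, adjusted p = 0.00376). The states did not overlap. The regions that rose were both upstream: chr7:120965001-120965400, 22 bases upstream of a start, went from 0.841, 0.868 and 0.966 CPM to 1.63, 1.61 and 2.16 CPM (1.09 ± 0.25, adjusted p = 0.000432). A second region 4022 bases upstream rose by 0.65 ± 0.19 (adjusted p = 0.00380). Summed over regions in the gene body alone, WNT16 differed by 0.04 and did not pass (adjusted p = 0.844).

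WNT2, a ligand of lung and heart development, had regions that rose together at the lowest listed coordinates and regions that fell at higher ones. The gene total rose by 0.39 ± 0.08 (adjusted p = 0.00158), from a mean of 13.3 ± 1.36 CPM (SD, n = 3) to 17.8 ± 1.15 CPM. Of its 8 regions 3 rose and 3 fell. The 3 that rose lay together between 116920001 and 116926800 on chromosome 7, with log2 fold changes of 1.31 ± 0.34, 0.90 ± 0.15 and 1.58 ± 0.28. The smallest p among them was at chr7:116921601-116923200 (0.90, adjusted p = 6.01e-06). The steepest, chr7:116926401-116926800, went from 0.760, 0.482 and 0.302 CPM to 2.09, 1.61 and 1.53 CPM. The 3 that fell lay at higher coordinates, between 116929001 and 116944800, with -0.61 ± 0.25, -0.83 ± 0.28 and -0.76 ± 0.23, and between the first and the second of these stood a region at 0.64 ± 0.28 that did not pass (adjusted p = 0.0543). Of those that fell, chr7:116944201-116944800 had the smallest p (adjusted p = 0.00629).

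WNT3A and WNT9A are neighbours on chromosome 1, and both rose in 5hmC. WNT3A, a classical activator of beta-catenin, rose by 0.32 ± 0.08 (adjusted p = 0.00311), from 59.6 ± 0.376 to 75.3 ± 10.1 CPM (SD, n = 3). Of its 10 regions 5 rose and 2 fell, led by chr1:228210801-228211600 (0.78 ± 0.17, adjusted p = 0.000341) and chr1:228215801-228216200 (-1.06 ± 0.28, adjusted p = 0.00241). WNT9A rose by 0.42 ± 0.10 (adjusted p = 0.00371), from 14.3 ± 2.16 to 19.0 ± 1.58 CPM. All 4 of its regions had a positive change and 2 passed, the clearest 4925 bases upstream of the start (chr1:228140601-228141000, 0.76 ± 0.19, adjusted p = 0.00145). One WNT9A region also lies at the microRNA gene MIR5008.

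WNT6, WNT11 and WNT2B rose as well. WNT6 rose by 0.37 ± 0.07 (adjusted p = 0.00125), from 15.8 ± 1.02 to 20.7 ± 1.49 CPM. Of its 6 regions 4 rose and none fell. They included 2 in CpG islands inside the gene (chr2:219736401-219737200, 0.40 ± 0.17, and chr2:219737601-219738200, 0.47 ± 0.15). The neighbouring WNT10A, whose start the annotation puts 7056 bases from the latter, differed by 0.11 ± 0.13 and did not pass (adjusted p = 0.489). WNT11, a ligand of the beta-catenin-independent branch, rose by 0.33 ± 0.10 (adjusted p = 0.0133), led by chr11:75896401-75897400 (0.62 ± 0.19, adjusted p = 0.00605). That call was lost without the first undifferentiated replicate (adjusted p = 0.0956) and without the first differentiated one (adjusted p = 0.0781).

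WNT2B rose by 0.29 ± 0.07 (adjusted p = 0.00361), from 14.8 ± 0.403 to 18.2 ± 1.20 CPM. Of its 7 regions 2 rose and 2 fell: the smallest p were at chr1:113046001-113047200 (0.82 ± 0.16, adjusted p = 8.21e-05), an island shore 4171 bases upstream of a start, and at chr1:113030401-113031400 (-0.58 ± 0.22, adjusted p = 0.0254). Among ligand genes that did not pass, the change of greatest size was in WNT10B (-0.23 ± 0.18, adjusted p = 0.302). The remaining ones, WNT1, WNT3, WNT4, WNT7B, WNT8B, WNT9B and WNT10A, had changes from -0.14 to 0.23. A gene total that did not pass could still hold regions that moved. In WNT8B chr10:102235801-102236200 fell by 1.02 on the log2 scale (adjusted p = 0.00787), opposite in sign to the region at its start. In WNT3 4 regions passed, 3 of them lower, and in WNT9B the 1 region that passed was lower.

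**Figure D2:**
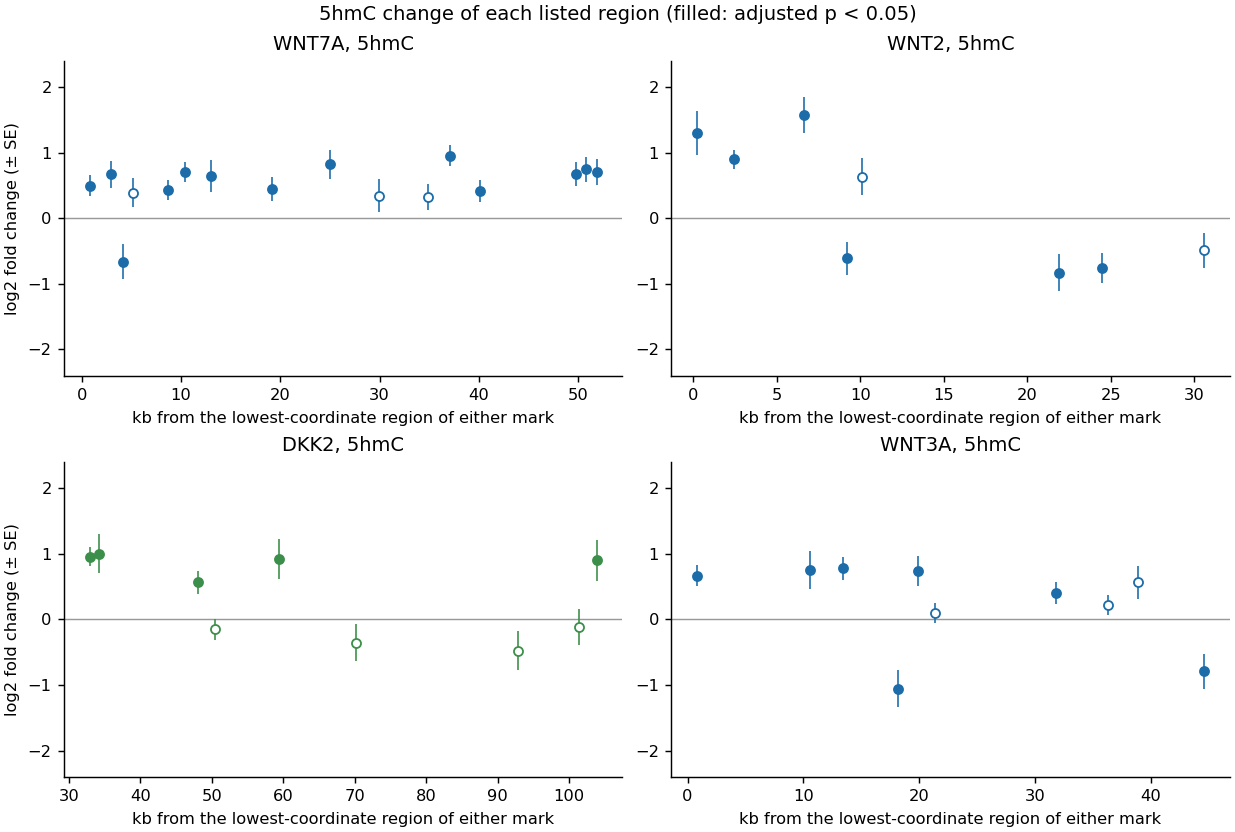
Log2 fold change of each 5hmC region (points; bars are SE; filled, adjusted p under 0.05) against the distance of its centre from the lowest-coordinate region of either mark, in kb, for WNT7A, WNT2, DKK2 and WNT3A. In WNT7A 12 of 16 regions are filled above 0, whereas WNT2 has 3 filled above and 3 filled below.

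No receptor gene total rose in 5hmC by edgeR's test: 3 of the 10 with a region fell and 7 did not pass, 4 of the 10 had an unadjusted p under 0.05, and with library totals 4 fell. Over all genes 25.7% rose and 25.8% fell with TMM, so the share of receptor genes that fell is near that of all genes. DESeq2 called no member higher beyond the 12 named. FZD5, a frizzled receptor of the intestinal lining and of other epithelia, went from 7.15, 7.55 and 7.89 CPM to 6.01, 4.10 and 4.74 CPM. The states did not overlap, and the change was -0.58 ± 0.13 (adjusted p = 0.00211). Of its 3 regions 1 passed, chr2:208637401-208638400, 3258 bases upstream of the start, where 3.50, 4.10 and 4.47 CPM became 2.25, 1.34 and 1.85 CPM (-1.07 ± 0.18, adjusted p = 1.02e-05). Over the gene body alone, FZD5 differed by -0.17 (adjusted p = 0.373). FZD3, a receptor of planar cell polarity, fell from 10.9, 10.6 and 10.7 CPM to 8.35, 7.13 and 7.83 CPM, with no overlap (-0.46 ± 0.09, adjusted p = 0.000914). All 6 of its regions were in the gene body, 4 fell and 1 rose. The smallest p were at chr8:28427801-28428400 (-0.66 ± 0.19, adjusted p = 0.00473) and chr8:28387401-28387800 (0.97 ± 0.27, adjusted p = 0.00303).

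LRP6, a co-receptor that is phosphorylated when a ligand binds, had 48.6, 48.0 and 44.6 CPM before and 38.5, 39.2 and 40.7 CPM after. The states did not overlap, and LRP6 fell by 0.25 on the log2 scale (-0.25 ± 0.05, adjusted p = 0.00200), with 6 of 22 regions lower and 3 higher. The region with the smallest p among those that fell was chr12:12398801-12399600 (-0.95 ± 0.24, adjusted p = 0.00135), and the region 4390 bases upstream of the start fell by 0.49 (adjusted p = 0.00772). Among those that rose, it was chr12:12293401-12294400 (0.81 ± 0.19, adjusted p = 0.000756). LRP5, its paralog, differed by -0.08 ± 0.05 and did not pass (adjusted p = 0.230), although 10 of its 39 regions fell and 3 rose. Over all receptor genes 23 of 84 regions fell (27.4%) and 9 rose (10.7%). Of the 110 regions of ligand genes 18 fell (16.4%) and 40 rose (36.4%). Over all gene regions 25.0% fell and 24.2% rose. The pooled counts of receptors and ligands lean on a few genes. LRP5 and LRP6 held 61 of the 84 receptor regions, with 16 lower and 6 higher. The frizzled genes held 23, with 7 lower and 3 higher, and WNT7A alone gave 12 of the 40 ligand rises.

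Among the frizzled genes that did not pass, FZD7, a receptor expressed in stem cells, had the change of greatest size (0.60 ± 0.24, adjusted p = 0.0511). Its single region, in a CpG island, passed at region level (0.61 ± 0.26, adjusted p = 0.0398), where the adjustment runs over other tests. FZD7 had the lowest 5hmC level of any member, 1.18 CPM per kb of region in undifferentiated cells. Its libraries ran from 0.723 to 1.09 CPM before and from 0.981 to 1.67 CPM after and overlapped, and without the second differentiated replicate it passed (0.72, adjusted p = 0.0145). FZD8 had a region at chr10:35932401-35933000 that rose by 0.96 ± 0.20 (adjusted p = 0.000163) and another, 4439 bases upstream of its start, that fell by 0.48 (adjusted p = 0.0301), and its total differed by 0.19 ± 0.13 (adjusted p = 0.221). FZD2, FZD6, FZD9 and FZD10 had changes from -0.06 to 0.31. The single FZD10 region also lies in FLJ31485, so its counts cannot be given to FZD10 alone.

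Both inhibitor genes that rose kept the call under library totals. DKK2, which binds LRP6, went from 17.3, 16.2 and 15.0 CPM to 22.6, 24.3 and 22.1 CPM (0.48 ± 0.07, adjusted p = 0.000141), and DKK4 from 11.4, 12.1 and 12.8 CPM to 15.9, 18.8 and 15.4 CPM (0.44 ± 0.08, adjusted p = 0.000894). In neither gene did the 2 states overlap. Of the 9 DKK2 regions 5 rose and none fell, led by chr4:107888601-107889600 (0.95 ± 0.15, adjusted p = 2.09e-06). The DKK2 region in the CpG island at its start differed by -0.12 ± 0.27 (adjusted p = 0.718), and over upstream regions alone DKK2 did not pass (0.32, adjusted p = 0.216). DKK4 had 2 regions, both upstream: the one 3127 bases from the start rose (0.61 ± 0.15, adjusted p = 0.00139), and the one at 1527 bases differed by -0.16 ± 0.18. DKK3, the divergent member of the family, differed by 0.25 ± 0.14 and did not pass (adjusted p = 0.133).

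**Figure D3:**
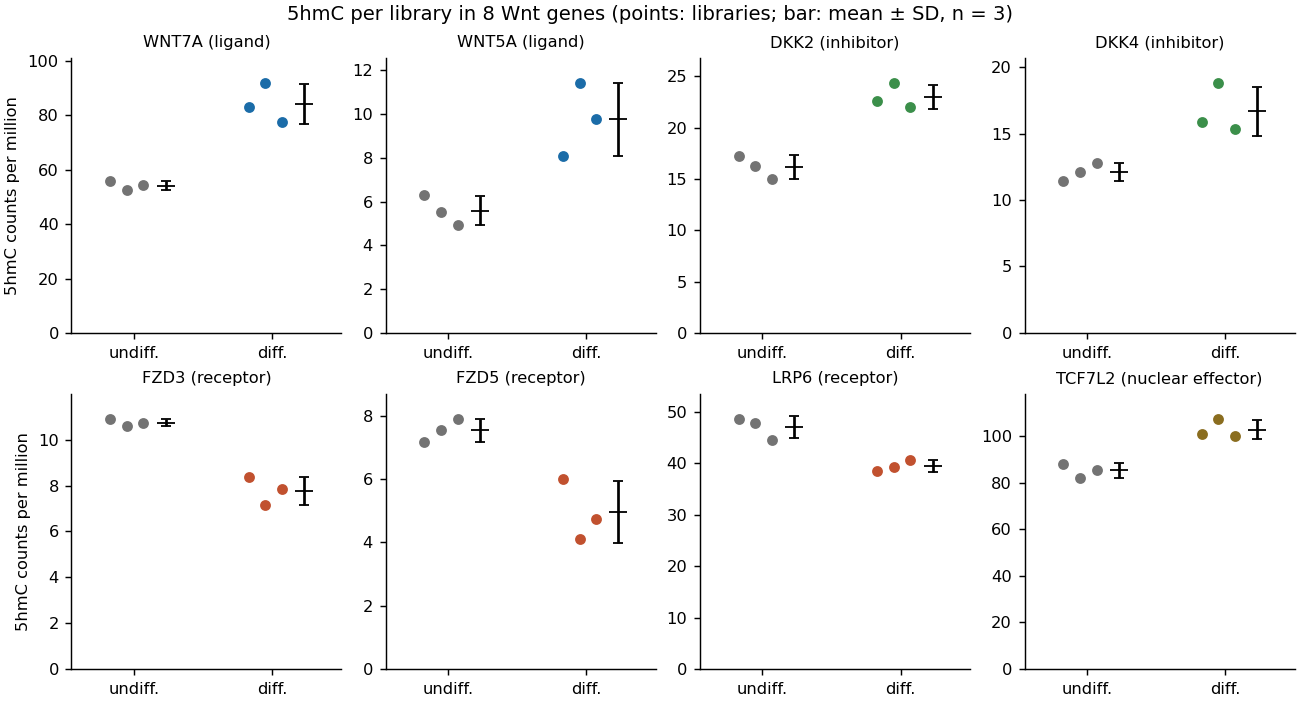
5hmC level in CPM (TMM-scaled, vertical axes from 0) in each of the 3 undifferentiated (grey) and 3 differentiated (coloured) libraries for WNT7A, WNT5A, DKK2, DKK4, FZD3, FZD5, LRP6 and TCF7L2; bars are mean ± SD. In each of these 8 genes the points of the states do not overlap.

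Of the 5 cytoplasmic components, AXIN1 fell in 5hmC and 4 did not pass. AXIN1 went from 42.1, 40.4 and 41.6 CPM to 35.4, 34.7 and 36.9 CPM, with no overlap (-0.21 ± 0.05, adjusted p = 0.00488). Of its 16 regions 7 fell and 2 rose, with the smallest p at chr16:344201-345400 (-0.83 ± 0.17, adjusted p = 0.000131) and chr16:355401-356400 (0.49 ± 0.18, adjusted p = 0.0204), both in the gene body. The regions upstream of the start, summed alone, rose by 0.39 (adjusted p = 0.0118). CTNNB1 had 13.4, 13.6 and 13.6 CPM before and 12.7, 13.2 and 13.1 CPM after, a change of -0.05 ± 0.07 that did not pass (adjusted p = 0.533). Within CTNNB1, too, the upstream region rose (chr3:41236201-41236600, 0.53 ± 0.19, adjusted p = 0.0159), while chr3:41278801-41279400 fell by 1.83 ± 0.27 on the log2 scale (adjusted p = 1.03e-06), from 2.17, 2.07 and 1.93 CPM to 0.507, 0.896 and 0.501 CPM. That was the largest fall of any 5hmC region of a member.

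AXIN2, a target gene of beta-catenin that feeds back on the pathway, differed by 0.19 ± 0.11 in 5hmC (adjusted p = 0.176). Its differentiated libraries ranged from 9.90 to 15.2 CPM around the undifferentiated 11.1 to 11.8 CPM. Leaving out the second differentiated replicate brought it past the threshold (0.29, adjusted p = 0.00695), and leaving out replicate 3 gave -0.011. GSK3B, the kinase that marks beta-catenin, held the most regions of any member, 43, of which 13 rose and 10 fell, and its total differed by 0.09 ± 0.05 (adjusted p = 0.157). APC differed by -0.17 ± 0.12 (adjusted p = 0.233).

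TCF7L2, the TCF factor of the gut and of metabolic tissues, was the only nuclear effector whose 5hmC total passed. It rose from 88.3, 82.1 and 85.7 CPM to 101, 107 and 100.2 CPM, with no overlap (0.27 ± 0.05, adjusted p = 0.00115). Of its 41 regions 16 rose and 7 fell. The smallest p were at chr10:114907401-114907800 (1.08 ± 0.18, adjusted p = 8.82e-06) and chr10:114861401-114862200 (-0.69 ± 0.19, adjusted p = 0.00276). With library totals the TCF7L2 total was 0.06 and did not pass (adjusted p = 0.416). TCF7L1, its paralog that often acts as a repressor, had 40 regions, of which 6 rose and 15 fell. Its total differed by -0.08 ± 0.05 (adjusted p = 0.164), and it was lower with library totals (-0.29, adjusted p = 0.000647) and over upstream regions alone (-0.65, adjusted p = 0.000768). TCF7 and LEF1, the factors best known from lymphocytes, differed by 0.07 ± 0.14 and -0.04 ± 0.07. In LEF1 a region in a CpG island, which the annotation also gives to the antisense gene LEF1-AS1, rose by 0.76 ± 0.24 (adjusted p = 0.00765).

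Levels were compared between genes only per kb of listed region. In undifferentiated cells the median member stood at 2.62 CPM per kb of 5hmC region and the median of all genes at 2.59, with quartiles of 2.22 and 3.05. The highest members were FZD9 (6.04 CPM per kb), WNT3A (5.84), FZD10 (5.52), WNT7B (5.35) and DKK4 (5.05), and the lowest were FZD7 (1.18) and WNT10A (1.80). MYC, which HL-60 is known to carry in extra copies, stood at 8.36 CPM per kb. Copy number was not measured here, and its part in these levels was not tested. Of the member regions in 5hmC, 5.03% lay in CpG islands, against 2.59% of all gene regions. Of the 19 member regions in islands 6 rose and none fell, and over all island regions of genes 39.8% rose and 3.80% fell.

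In 5mC, 11 of the 19 members with a listed region rose and 5 fell, while 41% of the 12637 genes in the list rose and 43.2% fell. The median log2 fold change was 0.24 over the members and 0.00 over all genes of the list. With library totals 3 of the 11 still rose (WNT7B, DKK2 and TCF7L2), all 5 still passed as lower, and 9 in all fell, so that the share of higher calls among called members went from 68.8% to 25.0%. Over the whole list, 1405 of the 12637 genes rose and 6835 fell with totals. Among the 70 member regions 32 rose and 22 fell, against 35.7% and 37% of all listed regions. DESeq2's Wald test on the same member regions called 3 higher and 1 lower. Over all 65534 listed regions tested it called 1954 higher and 1454 lower. In 5mC the p-values carry the selection of the list, and only those of regions were adjusted for the number of tests behind it. A lack of overlap between the states carries that selection too. By gene total, all differentiated libraries were above all undifferentiated ones in 11 members and below them in 4. Over all genes of the list this held for 39% and 38.8%, so it says little about a single gene.

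The smallest 5mC p among the members was that of TCF7L2. Its 14 regions, the first of them upstream of the start, all had positive changes, and 11 passed. Each was listed for a difference between these same libraries, so the count of passes and the p-values carry that selection. In edgeR with library totals, only chr10:114892201-114893000 (0.69, adjusted p = 0.000433) and chr10:114768001-114768400 (0.56, adjusted p = 0.0216) of the 11 still passed. The sum over the 14 regions went from 113, 121 and 111 CPM to 169.8, 167 and 166 CPM, with no overlap (0.55 ± 0.04, adjusted p = 3.58e-19). The region with the smallest p was chr10:114892201-114893000, where 6.87, 6.31 and 5.48 CPM became 11.5, 12.5 and 12.1 CPM (0.95 ± 0.16, adjusted p = 4.84e-06). The others that passed had changes of 0.46 (chr10:114705801-114707400), 0.73 (chr10:114722201-114722800), 0.34 (chr10:114750801-114754000), 0.82 (chr10:114768001-114768400), 0.50 (chr10:114794001-114795000), 0.72 (chr10:114812801-114813800), 0.44 (chr10:114818201-114819400), 0.58 (chr10:114850201-114851600), 0.59 (chr10:114902401-114904000) and 0.29 (chr10:114911601-114913800). TCF7L1 again differed from TCF7L2: it fell from 54.5, 53.3 and 48.7 CPM to 42.4, 45.1 and 46.2 CPM (-0.23 ± 0.07, adjusted p = 0.00180), and the states did not overlap. Of its 7 regions 5 fell, by 0.97 (chr2:85375801-85376200), 0.50 (chr2:85429801-85431200), 0.51 (chr2:85453801-85455200), 0.83 (chr2:85466801-85468000) and 0.70 (chr2:85525001-85525800). The sixth to pass, chr2:85399001-85400200, rose by 0.65 ± 0.13 (adjusted p = 0.000412), and in 5hmC the region that covers it rose too (0.52 ± 0.16, adjusted p = 0.00662). The difference between the paralogs was not itself tested.

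**Figure D4:**
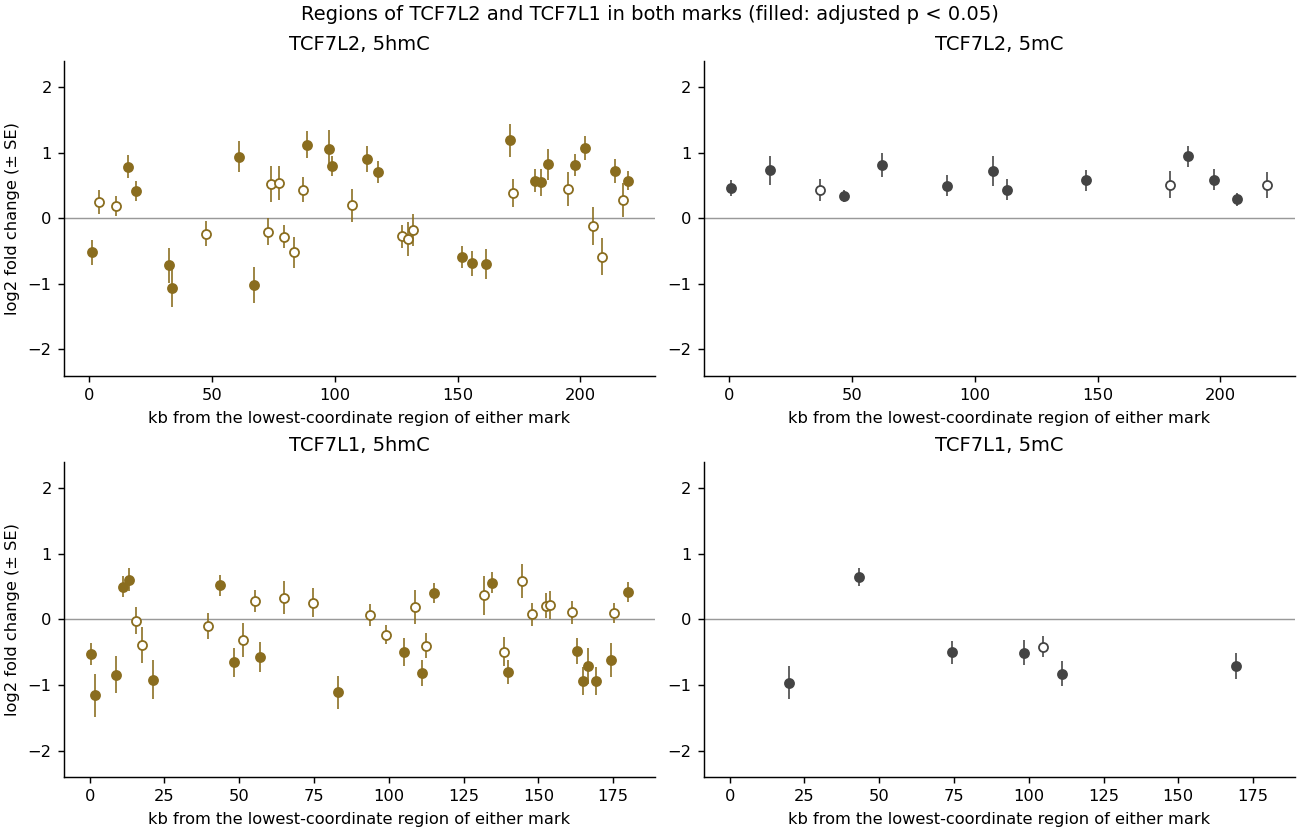
Log2 fold change of each region (points; bars are SE; filled, adjusted p under 0.05) of TCF7L2 (top) and TCF7L1 (bottom) in 5hmC (left) and 5mC (right), against distance from the lowest-coordinate region of either mark, in kb. All 14 5mC regions of TCF7L2 lie above 0, and 6 of the 7 of TCF7L1 lie below 0; in 5hmC both genes have filled points on either side.

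LEF1 had 1 listed 5mC region, chr4:109053601-109054400, and it had the largest fall of any member's gene total. Its values were 3.70, 4.43 and 5.79 CPM before and 2.75, 2.10 and 2.22 CPM after (-0.96 ± 0.25, adjusted p = 0.000511; region -1.01 ± 0.25, adjusted p = 0.00301). The states did not overlap. In 5hmC the region on the same bases differed by -0.26 ± 0.21 and did not pass.

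Among the 8 ligand genes with a 5mC region, 5 rose and 2 fell. WNT7B, a ligand of lung and vessel development, had the largest rise, from 2.78, 3.25 and 4.24 CPM to 7.68, 6.58 and 6.88 CPM (1.05 ± 0.21, adjusted p = 1.02e-05). WNT8B rose from 2.91, 6.05 and 4.95 CPM to 7.10, 8.55 and 6.65 CPM (0.68 ± 0.20, adjusted p = 0.00163), and without the first undifferentiated replicate that call was lost (adjusted p = 0.0551). Both were single regions without overlap between the states, an island shore at chr22:46325401-46326000 and a gene-body region at chr10:102234601-102235200. WNT2B rose from 15.2, 14.2 and 14.0 CPM to 19.2, 22.3 and 21.3 CPM, again with no overlap (0.53 ± 0.11, adjusted p = 2.47e-05). Both WNT2B regions passed, chr1:113036201-113037000 with 0.39 and chr1:113046001-113047200 with 0.81.

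WNT3A rose by 0.41 ± 0.09 (adjusted p = 2.99e-05), with chr1:228228201-228231000 past the threshold (0.34 ± 0.11). WNT7A rose by 0.46 ± 0.14 (adjusted p = 0.00340) through its single region at chr3:13910001-13911400, which lies inside the 5hmC region of that gene with the smallest p. WNT5B fell by 0.49 (-0.49 ± 0.12, adjusted p = 0.000187), with both regions lower (chr12:1730801-1731600, -0.77, and chr12:1732001-1733800, -0.48). WNT3 fell by 0.41 (-0.41 ± 0.13, adjusted p = 0.00370), although neither of its regions passed alone, its states overlapped, and the call was lost without the second undifferentiated replicate (adjusted p = 0.0791). The total of WNT9B did not pass (-0.24 ± 0.15, adjusted p = 0.116), but all 3 of its regions did. Beside the rise upstream of its start (chr17:44927801-44928600), chr17:44930601-44931000 fell by 0.74 and chr17:44948001-44948400 fell by 1.97 (adjusted p = 2.00e-05), the largest fall of any 5mC region of a member.

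Of the co-receptors, LRP5 rose in 5mC by 0.12 ± 0.05 (adjusted p = 0.0325) from 79.5, 78.6 and 82.8 CPM to 91.0, 85.6 and 84.6 CPM. The states did not overlap, but the change was small: it was lost without either of the first 2 undifferentiated replicates or the first differentiated one (adjusted p from 0.0755 to 0.207), with DESeq2 (adjusted p = 0.132), and reversed with library totals (-0.19). Inside LRP5, the region 2909 bases upstream of the start fell by 0.47 (chr11:68076001-68077200, adjusted p = 0.00403) and chr11:68111601-68113000 fell by 0.42. A CpG island in the body rose (chr11:68156201-68160400, 0.27 ± 0.08), as did a shore near the far end (chr11:68201801-68202200, 0.99 ± 0.29). LRP6 differed by -0.11 ± 0.06 in total (adjusted p = 0.0855). In it, 4 regions fell, by 0.80 (chr12:12340801-12341400), 0.68 (chr12:12357001-12358400), 0.98 (chr12:12406801-12407400) and 0.49 (chr12:12414801-12416600). Another 2 rose, by 0.38 (chr12:12315801-12317200) and 0.56 (chr12:12329601-12330200).

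Both inhibitor genes with a 5mC region rose. DKK2 went from 19.8, 13.6 and 16.8 CPM to 27.4, 26.6 and 25.4 CPM, with no overlap (0.65 ± 0.10, adjusted p = 8.35e-08), and its 4 regions were all positive, with chr4:107856201-107856600 (0.70) and chr4:107888801-107889400 (0.69) past the threshold. DKK4 went from 15.7, 16.5 and 17.8 CPM to 17.9, 19.9 and 21.3 CPM (0.24 ± 0.11, adjusted p = 0.0354). In DKK4 the states were separated only narrowly, and the call was lost without the first or second undifferentiated replicate, without differentiated replicate 2 or 3, and with DESeq2 (adjusted p = 0.122). Its 2 regions passed with opposite signs: the one at the start rose (chr8:42232601-42234800, 0.46 ± 0.13) and the one 1527 bases upstream fell (chr8:42236201-42236800, -0.66 ± 0.22).

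Among the cytoplasmic components, CTNNB1 rose in 5mC from 22.4, 23.6 and 21.3 CPM to 30.5, 27.2 and 29.6 CPM, with no overlap (0.38 ± 0.09, adjusted p = 0.000190). One of its regions that rose is 3143 bases upstream of the start (chr3:41236201-41237800, 0.40 ± 0.12, adjusted p = 0.0125) and the other is in the body (chr3:41272001-41273000, 0.52 ± 0.17), while another region, at -0.70 ± 0.29, did not pass. AXIN2 rose from 3.04, 3.10 and 3.53 CPM to 5.27, 5.18 and 4.90 CPM with no overlap (0.66 ± 0.22, adjusted p = 0.00611), from 1 region that did not pass at region level (adjusted p = 0.0508). AXIN1 fell from 18.5, 21.4 and 22.7 CPM to 18.0, 17.2 and 14.5 CPM (-0.33 ± 0.11, adjusted p = 0.00458), from the single region chr16:385801-389800. The AXIN1 states did not overlap, and without the third differentiated replicate the call was lost (adjusted p = 0.0526).

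GSK3B totals did not differ past the threshold (0.07 ± 0.07, adjusted p = 0.340), yet 8 of its 11 listed regions did, 4 in each direction. Those that rose lay at chr3:119667401-119668000 (0.48), chr3:119694001-119694400 (0.70), chr3:119697001-119698400 (0.64) and chr3:119806601-119807200 (0.60). Those that fell lay at chr3:119647201-119647600 (-0.94), chr3:119678201-119679200 (-1.07), chr3:119683801-119684400 (-0.97) and chr3:119755401-119755800 (-0.79).

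The 2 marks were taken from the same DNA preparations and are given side by side. Of the 70 listed 5mC regions, 49 overlapped a 5hmC region of the same gene, and 14 such pairs had identical edges. Of the pairs that passed in both marks, 12 were higher in both, 8 were lower in both and 2 were higher in 5mC and lower in 5hmC. In 5mC alone 5 pairs passed as higher and 14 as lower. In 5hmC alone 3 passed as higher and 5 as lower, and 2 pairs passed in neither mark. Pairs were not counted over the whole series, so whether these numbers are particular to Wnt genes was not tested. At chr1:113046001-113047200, upstream of the second start of WNT2B, 5mC went from 3.50, 2.55 and 2.02 CPM to 5.18, 4.40 and 4.69 CPM, and 5hmC on the same bases from 2.77, 2.51 and 3.56 CPM to 4.79, 5.82 and 4.95 CPM. Both marks rose there, by 0.81 ± 0.24 and 0.82 ± 0.16. At chr17:44948001-44948400 in WNT9B both fell: 5mC went from 2.56, 4.06 and 4.04 CPM to 0.451, 1.51 and 0.800 CPM, and 5hmC from 1.36, 2.03 and 1.87 CPM to 1.24, 0.806 and 0.689 CPM (-0.93 ± 0.26, adjusted p = 0.00352).

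The 2 pairs with opposite signs, chosen after their values were seen, lay in LRP6 and TCF7L2. In LRP6, 5mC at chr12:12329601-12330200 went from 5.93, 6.91 and 4.90 CPM to 8.11, 9.49 and 8.57 CPM (0.56 ± 0.17, adjusted p = 0.0186). The 5hmC region that starts at the same base went from 1.36, 1.50 and 1.39 CPM to 0.620, 0.716 and 0.751 CPM (-0.99 ± 0.27, adjusted p = 0.00313), and in neither mark did the states overlap. In TCF7L2, 5mC 2610 bases upstream of the start (chr10:114705801-114707400) went from 10.1, 12.8 and 10.8 CPM to 16.0, 16.8 and 13.7 CPM (0.46 ± 0.13, adjusted p = 0.00886). The 5hmC region inside it went from 3.36, 2.70 and 3.20 CPM to 2.25, 2.96 and 1.78 CPM (-0.52 ± 0.18, adjusted p = 0.0170), where the states overlapped.

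Beyond the members, 59 further genes of Wnt secretion, inhibition, reception and transcription were counted. In 5hmC 56 of them had a region, and 19 rose, 13 fell and 24 did not pass, beside the 25.7% and 25.8% of all genes given above. By group, 6 of 13 nuclear co-factors rose and 4 fell, 4 of 12 cytoplasmic genes rose and 4 fell, 4 of 7 planar polarity genes rose and 1 fell, 3 of 9 genes of the R-spondin module rose and 2 fell, 2 of 4 further receptors rose and 1 fell, 1 of 2 Dickkopf partners fell (KREMEN2, -0.58 ± 0.14, adjusted p = 0.00460), and none of 7 secreted inhibitors passed (2 had an unadjusted p under 0.05 in edgeR's test). The largest rise past the threshold was that of TLE3, a co-repressor bound by TCF factors (0.56 ± 0.09, adjusted p = 0.000222), and the largest fall that of PYGO2, a co-activator of beta-catenin (-0.71 ± 0.21, adjusted p = 0.0137). With library totals 3 rose and 22 fell. In 5mC 40 had a listed region, and 13 rose and 12 fell (3 and 24 with library totals), beside 41% and 43.2% of all genes of the list. The ends of the range were VANGL1, a planar polarity gene (0.71 ± 0.10, adjusted p = 1.21e-08), and WIF1, a secreted inhibitor that binds Wnt ligands (-0.95 ± 0.21, adjusted p = 5.62e-05).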

How the data were processed

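Per the labels' protocols, sheared DNA of each of 3 biological replicates per state was made into indexed libraries and immunoprecipitated with an antibody to 5mC or to 5hmC. Per the submitters' processing notes, BWA, SAMtools 0.1.18, bedtools 2.17.0, SICER 1.1 and edgeR 2.11 were used with GRCh37 (hg19). The roles of these tools, and whether regions were called in pooled libraries, are not given in the sources used here. For each mark the authors deposited a table of regions on a 200-base grid with unnormalized read counts per library. Per the file headers, each region also has distances to the nearest gene, gene start and CpG island. The authors' deposited log2 fold change, p-value and adjusted p-value columns were kept beside the new values of member regions. From them, only the end of the 5mC list and the number of tests it implies are reported here. The deposited 5mC list ends at a p-value of 0.0165 (adjusted 0.0826), which implies 328588 tests, and 5mC region p-values were adjusted over that number. Of the 327949 regions of the 5hmC table, 18 with missing counts were left out. Symbols that had turned into dates (26 in 5hmC, 17 in 5mC) were dropped.

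Counts were summed per gene as described and tested with edgeR 4.0.16 in R 4.3.3 (quasi-likelihood F test, filterByExpr, TMM on the totals of all listed counts, Benjamini-Hochberg adjustment, threshold 0.05), 3 against 3 libraries, across the whole table of each mark. P-values of 5mC genes carry no correction for where the list ends. SE come from the fold change and F statistic. Alternatives were library totals, DESeq2 1.42.0, no filter, the replicate number as a block, other sets of regions per gene, and leaving out each library. Gene body means inside a gene by the deposited distance, and exons and introns were not told apart. An island shore lies within 2 kb of an island. The fits were tested on simulated data with 200 changed features. In 5hmC, 97% of changes of 1 on the log2 scale and 78% of smaller ones were recovered per gene. Per 5hmC region the values were 44% and 2%. In 5mC they were 97% and 62% per gene and 81% and 26% per region. A region that did not pass can therefore still have changed. The members, roles and further genes were chosen with earlier results of these data known. Named were all members past the threshold, the largest change per role that did not pass, in 5hmC the region of smallest p in each direction within called members, and in 5mC all member regions past it.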

Additional observations from a re-analysis of the deposited data

How the results depend on the processing

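With library totals in place of TMM, members called higher and lower were 4 and 11 in 5hmC and 3 and 9 in 5mC, and member regions 49 and 137 in 5hmC and 4 and 28 in 5mC. Over all regions, totals gave 46023 higher and 118331 lower of 327901 in 5hmC, and 2494 and 32689 of 65534 in 5mC. DESeq2's Wald test called 45 higher and 26 lower member regions in 5hmC and 3 and 1 in 5mC, and the cause was not tested. Over all regions it called 43210 and 23252 in 5hmC and 1954 and 1454 in 5mC. Upstream regions alone left 30 members in 5hmC and gave 10 higher and 4 lower, of which 7 and 2 were also calls of the main fit. CTNNB1 passed as higher there (adjusted p = 0.0234 by edgeR's test). In 5mC upstream regions alone left 7 members and gave 5 higher and 2 lower, of which 4 and 1 were also calls of the main fit. Signs reversed with library totals for AXIN2 in 5hmC (-0.018) and for DKK4 (-0.071), GSK3B (-0.24) and LRP5 (-0.19) in 5mC. With upstream regions alone they reversed for AXIN1 (0.39), AXIN2 (-0.32), CTNNB1 (0.51) and TCF7L2 (-0.13) in 5hmC and for LRP5 (-0.42) and WNT9B (0.69) in 5mC, and without differentiated replicate 3 for AXIN2 in 5hmC, whose values with 1 library left out ran from -0.011 to 0.29. Leaving out 1 library at a time gave 11 to 15 members higher and 5 to 6 lower in 5hmC, and 8 to 11 and 4 to 7 in 5mC. At region level it gave 64 to 108 higher and 47 to 89 lower in 5hmC, and 17 to 21 and 14 to 19 in 5mC. Of the 102 and 88 member regions called higher and lower in 5hmC, 39 and 24 passed in all 10 settings, and of the 32 and 22 in 5mC, 3 and 1. Leaving out the filter on low counts changed no member count. Same-numbered libraries of the states did not deviate together (correlations from -0.17 to -0.01 in 5hmC and from -0.01 to 0.02 in 5mC). With 3 libraries per state these correlations cannot exclude that the numbers pair them. With the replicate block, 12 members rose and 5 fell in 5hmC and 11 and 5 in 5mC, with 88 and 72 regions in 5hmC and 32 and 22 in 5mC.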
